A study of Mus musculus with 4 samples.

Results

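Fc gamma receptors bind the constant part of IgG antibodies, and 5 genes of that system are described here in immune cells from mouse brains bearing GL261 tumours, a glioma line grown in the brain. They are Fcgr1, Fcgr2b, Fcgr3, Fcgr4 and Fcer1g, taken by symbol from the 30406 genes that all 4 libraries list, and all 5 were found. Each of the 4 groups was 1 single-cell RNA library of live CD45.2+ cells. The labels give the tissue as brain and describe brain digestion, although a protocol line speaks of lung immune cells, and microglia were found in all 4 libraries. The anti-PD1 groups, sorted on day 25, came from IFNaR-/- mice (KO) and wild-type mice (WT) injected with 200 ug per mouse of the checkpoint antibody anti-PD1 on days 7, 11, 15 and 19, and sorted CD3+ and CD3- cells were combined in equal parts. The untreated groups, sorted on day 20, came from KO and WT mice with no such mixing. Suspensions of several mice were pooled, the number is not given, and cells had been blocked before staining with an antibody against CD16 and CD32, the surface proteins of Fcgr3 and Fcgr2b. The label IFNaR-/- stands for loss of the type I interferon receptor and names neither a subunit nor a cell type, and KO and WT stand below for the libraries so labelled.

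In mice, Fcgr1 encodes the high-affinity IgG receptor, while Fcgr3 and Fcgr4 encode activating receptors of lower affinity. These proteins need the common gamma chain, product of Fcer1g, which carries the activating motif (ITAM) and also serves the IgE receptor of mast cells and basophils and several C-type lectins. Fcgr2b encodes the inhibitory receptor, whose own motif (ITIM) recruits phosphatases, and it is the Fc receptor of B cells. The balance of Fcgr2b against the activating receptors sets how a macrophage responds to antibody-coated targets, and interferons are known inducers of Fcgr1.

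All but Fcgr1 lie together on chromosome 1 within 275.749 kb, and Fcgr1 lies on chromosome 3 (GRCm38, GENCODE annotation). Fcgr2b spans 170958617 to 170976547 on the minus strand, Fcgr4 171018920 to 171029761 on the plus strand, Fcgr3 171051174 to 171064935 and Fcer1g 171229572 to 171234365, both on the minus strand, and Fcgr1 spans 96282909 to 96293969 of chromosome 3 on the minus strand. All 5 are protein-coding. Promoter windows of 300 bases from RefSeq (GRCm38.p6), 250 before to 50 after the start site, were matched for all 5, and those of 3 genes with different KO to WT patterns are shown so that their letters can be compared. Capitals mark matches on either strand to the GAS motif TTCNNNGAA, the ISRE core GAAANNGAAA and the PU.1 core GAGGAA.
Fcgr1, chr3:96293920-96294219, minus strand: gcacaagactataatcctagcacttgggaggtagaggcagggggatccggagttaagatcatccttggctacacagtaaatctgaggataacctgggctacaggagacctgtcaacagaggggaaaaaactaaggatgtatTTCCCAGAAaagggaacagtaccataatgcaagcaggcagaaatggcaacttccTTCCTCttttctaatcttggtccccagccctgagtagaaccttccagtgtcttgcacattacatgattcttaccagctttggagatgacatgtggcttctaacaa
Fcgr4, chr1:171018676-171018975, plus strand: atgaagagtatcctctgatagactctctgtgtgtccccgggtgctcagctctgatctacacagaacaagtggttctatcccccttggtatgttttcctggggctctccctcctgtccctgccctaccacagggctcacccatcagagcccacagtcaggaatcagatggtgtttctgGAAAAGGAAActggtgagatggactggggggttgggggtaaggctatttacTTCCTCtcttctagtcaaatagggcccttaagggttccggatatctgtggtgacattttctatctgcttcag
Fcgr2b, chr1:170976022-170976321, minus strand: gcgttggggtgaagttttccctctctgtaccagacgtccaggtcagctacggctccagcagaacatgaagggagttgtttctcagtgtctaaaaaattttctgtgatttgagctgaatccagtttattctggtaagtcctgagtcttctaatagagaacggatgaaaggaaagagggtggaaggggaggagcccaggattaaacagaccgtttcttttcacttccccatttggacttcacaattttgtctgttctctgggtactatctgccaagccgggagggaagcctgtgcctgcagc
The Fcgr1 window held 1 GAS match, starting at -109 from the start site, and 1 PU.1 match at -55. That of Fcgr4 held 1 ISRE core match at -73 and 1 PU.1 match at -22. No match was in the Fcgr2b or Fcer1g windows, and each of the 2 windows listed for Fcgr3 had 1 PU.1 match. Of 32851 promoter windows of this length, 8.30% held the GAS motif, 3.44% the ISRE core and 28.3% the PU.1 core, and a match is only a description of these letters.

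After filtering, 7881 KO and 8742 WT cells of the anti-PD1 libraries and 2726 KO and 4982 WT cells of the untreated libraries remained, from libraries that held 32410040 to 94732545 UMIs over all barcodes, with medians of 4940 to 9482 UMIs per cell. A UMI stands for 1 captured RNA molecule. Cells were assigned to 11 lineages by raw marker gates (at least 3 of 6 marker genes detected), none of which uses a receptor gene. After anti-PD1 the T cell gate held 7.97% of KO and 5.78% of WT cells, far below the equal mixing stated above. Untreated, it held 21.3% of KO and 26.2% of WT cells. Libraries of the 2 treatments were processed with different Cell Ranger versions, and the anti-PD1 libraries also differed from each other, with 7.59 T cell receptor variable segment UMIs per 100 constant region UMIs in KO and 292 in WT, against 0.937 in KO and 1.01 in WT of the untreated pair. The reason for these unlike segment ratios is not known. Genotype and that reason cannot be told apart in the anti-PD1 pair, nor treatment, day, mixing, Cell Ranger version and that reason between pairs. The anti-PD1 libraries shared 78 barcodes among the cells used, and other library pairs at most 2. Ifnar1, the presumed target, had 146 CPM in KO and 77.0 CPM in WT of the anti-PD1 pair and 130.03 CPM in KO and 97.9 CPM in WT of the untreated pair over all cells, so its count did not check the KO label, since gene counts do not show which part of the allele is read. Here CPM means UMIs per 1000000 UMIs of the summed cells. With 1 library per group there is no spread between replicates and no test, every interval is 95% and covers counting error only, and "called" means at least 2-fold different. In summed libraries, fewer cells expressing a gene and fewer molecules per cell cannot be told apart. Levels of different genes are molecules counted, not divided by length.

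**Figure D1:**
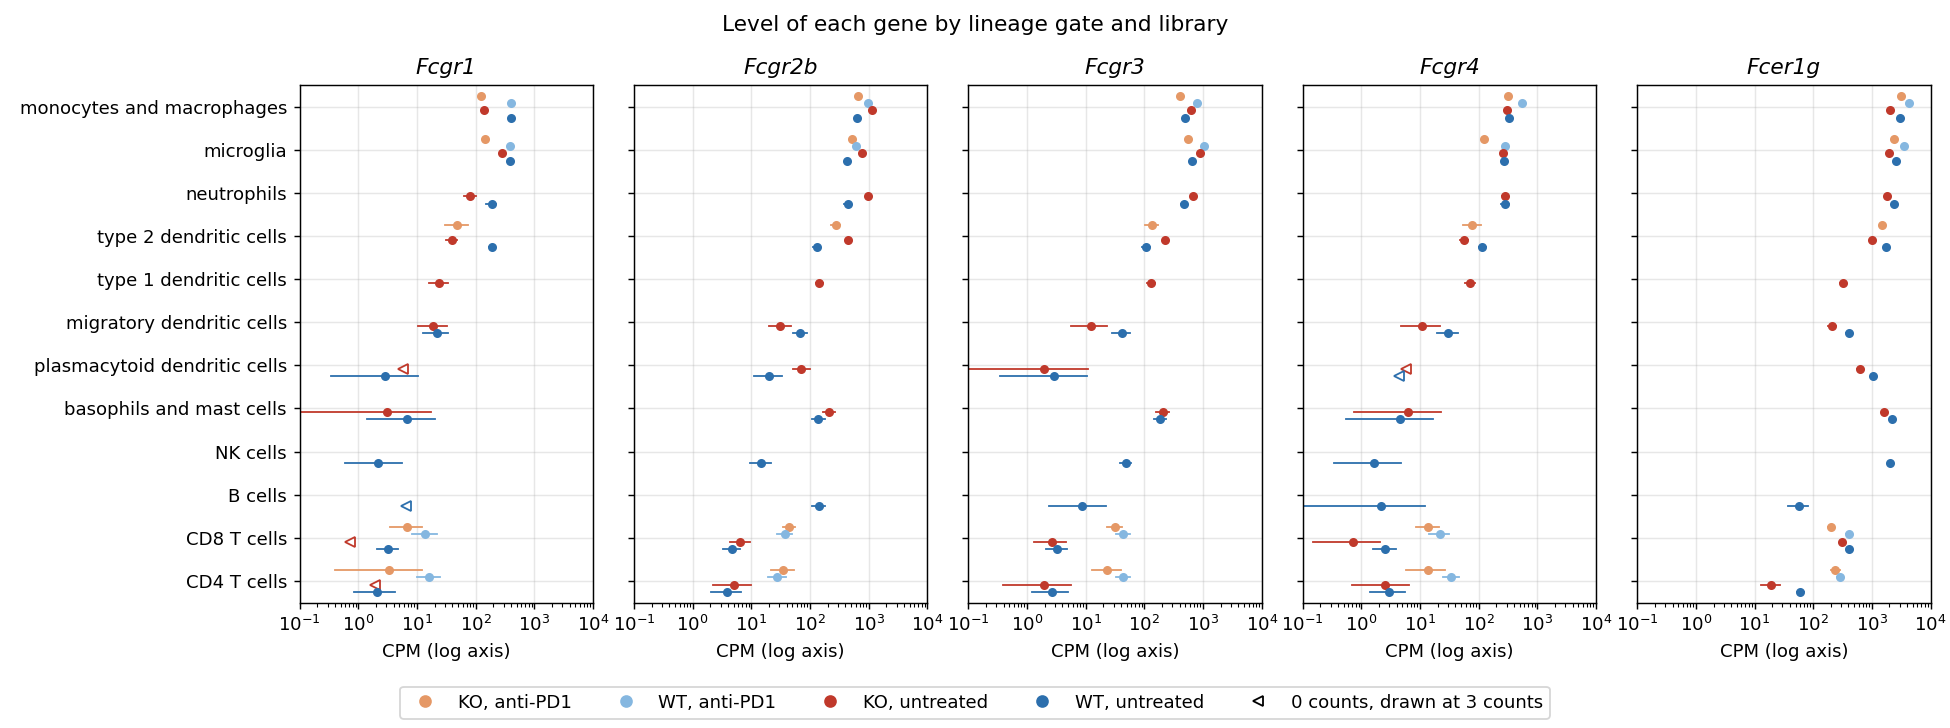
Level of each gene (CPM, log axis) in each lineage gate with at least 50 cells, by library, with 95% Poisson intervals for counting error; open triangles are 0 counts drawn at the level of 3 counts. The receptor genes are high in monocytes and macrophages, microglia (Fcgr2b 419 to 1137 CPM in these) and the mixed neutrophil gate of the untreated libraries (Fcgr2b 964 CPM in KO and 441 CPM in WT), and at most 44.1 CPM in CD8 and CD4 T cells, while Fcer1g is also high in NK cells and basophils and mast cells. The WT anti-PD1 neutrophil gate and the KO anti-PD1 type 1 dendritic cell gate are left out because their marker levels went against the name.

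Monocytes and macrophages and microglia carried all 5 genes. In the untreated WT library Fcgr1 stood at 398 CPM in monocytes and macrophages and 379 CPM in microglia, 2 values whose intervals overlap, then at 189.8 CPM in type 2 dendritic cells and 187 CPM in the neutrophil gate, also overlapping, and at or below 21.6 CPM in every other gate with at least 50 cells. Fcgr2b in that library was highest in monocytes and macrophages (634 CPM), followed by the neutrophil gate (441) and microglia (419), whose intervals overlap, then B cells (142), basophils and mast cells (139) and type 2 dendritic cells (130.5), likewise overlapping. Fcgr3 was highest in microglia (641 CPM), then in monocytes and macrophages (500.5) and the neutrophil gate (475), which overlap. Fcgr4 ran from 333 CPM in monocytes and macrophages to 285 and 272 CPM in the neutrophil gate and microglia, which overlap, with 115 CPM in type 2 dendritic cells and at or below 30.04 CPM elsewhere. Fcer1g was less tied to phagocytes: 3079 CPM in monocytes and macrophages, 2558 in microglia, 2402 in the neutrophil gate, 2186 in basophils and mast cells, 2041 in NK cells, 1716 in type 2 dendritic cells and 1057 in plasmacytoid dendritic cells.

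T cells should largely lack these receptors and were used as the measure of background from free RNA. In the T cell gate the 4 receptor genes had 6.56 to 41.3 CPM in KO and 14.6 to 41.7 CPM in WT of the anti-PD1 pair, and 0.156 to 6.26 CPM in KO and 2.81 to 5.01 CPM in WT of the untreated pair. The summed monocyte and macrophage markers of that gate stood at 586 CPM in KO and 388 CPM in WT after anti-PD1 and at 91.8 CPM in KO and 135 CPM in WT untreated, so markers and receptor counts were both higher in the anti-PD1 libraries. After anti-PD1 the markers were higher in KO and the summed receptors lower in KO (94.1 CPM in KO and 111 CPM in WT), and the part of the markers in these counts was not tested. Receptor levels under about these values were therefore read as background. T cells with at least 3 monocyte and macrophage genes had been set apart as mixed. The dendritic, neutrophil, and basophil and mast cell gates had no such limit, so their background may be higher and was not measured.

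Fcgr1, the high-affinity receptor, was lower in KO monocytes and macrophages in both pairs. It had 122 CPM in KO against 399 CPM in WT after anti-PD1, and 139.9 CPM in KO against 398 CPM in WT without treatment. Over the whole gate the KO libraries thus sat together and the WT libraries sat together. Within the C1q-positive, Ly6c2-low cells described below, the WT libraries lay further apart. The log2 ratio KO/WT of Fcgr1 over the whole gate was -1.71 (-1.77 to -1.66) and -1.51 (-1.60 to -1.42), which is 3.28-fold and 2.84-fold lower. It was the sole member called in either pair, 1 of 5 each, where 17.8% of all genes measured in these cells were called in the anti-PD1 pair and 9.11% in the untreated pair. Thinned to 1000 UMIs per cell, 10.5% of KO and 31.5% of WT monocytes and macrophages held an Fcgr1 UMI after anti-PD1, and 10.9% of KO and 29.7% of WT untreated, against at most 1.19% of T cells. Unthinned, the shares were 42.0% of KO and 88.4% of WT after anti-PD1 and 56.4% of KO and 79.1% of WT untreated (medians of 5206.5, 9140, 9956 and 7381.5 UMIs).

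In microglia, the resident phagocytes of the brain, Fcgr1 had 143.5 CPM in KO and 379.7 CPM in WT after anti-PD1 (log2 ratio -1.40, -1.49 to -1.32). Untreated, it had 279 CPM in KO and 379 CPM in WT (log2 ratio -0.44, -0.58 to -0.31), below 2-fold. KO was below WT in both pairs, and the untreated KO library lay between the others. After anti-PD1 2 of 5 members were called, with 14.9% of all genes as background, and untreated 0 of 5, with 4.22%.

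Fcgr2b, the inhibitory receptor, went the other way in the untreated pair. In monocytes and macrophages it had 1137 CPM in KO and 634 CPM in WT (log2 ratio 0.84, 0.80 to 0.88; 1.79-fold higher), and in microglia 763 CPM in KO and 419 CPM in WT (0.86, 0.76 to 0.97). After anti-PD1 it had 649 CPM in KO and 981 CPM in WT monocytes and macrophages (-0.60, -0.62 to -0.57) and 513.6 CPM in KO and 600.4 CPM in WT microglia (-0.23, -0.28 to -0.17). Untreated KO was the library with the highest Fcgr2b in both lineages, and none of these differences reached 2-fold. The microglia gate held monocyte and macrophage markers at 2832 CPM in KO and 2721 CPM in WT after anti-PD1, near its own list at 2959 CPM in KO and 2767 CPM in WT, and at 1198 CPM in KO and 756 CPM in WT untreated, below its own list at 3955 CPM in KO and 4868 CPM in WT. In untreated microglia with at most 2 of the 6 monocyte and macrophage genes, Fcgr2b had 711 CPM in KO and 417 CPM in WT (0.77).

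Fcgr3, a low-affinity activating receptor, followed Fcgr2b in sign. Monocytes and macrophages had 408.5 CPM in KO and 804 CPM in WT after anti-PD1 (log2 ratio -0.98, -1.01 to -0.95), and 618 CPM in KO and 500.5 CPM in WT untreated (0.30, 0.25 to 0.36). Microglia had 562 CPM in KO and 1024 CPM in WT after anti-PD1 (-0.87) and 889.6 CPM in KO and 641 CPM in WT untreated (0.47). Fcgr2b and Fcgr3 share 166 stretches of 50 bases, which cover 11.1% of the first 500 bases of the longest Fcgr2b transcript and 19.7% of those of Fcgr3 and none of the last 500, so reads of the first part can be of uncertain origin between them. No other pair of members shares such a stretch.

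Fcgr4, the other activating receptor of this kind, had 319 CPM in KO and 549 CPM in WT monocytes and macrophages after anti-PD1 (log2 ratio -0.78, -0.82 to -0.75), and 304 CPM in KO and 333 CPM in WT untreated (-0.13, -0.20 to -0.07). In microglia it had 124 CPM in KO and 277 CPM in WT after anti-PD1, the second member called there (-1.16, -1.25 to -1.06), and 263 CPM in KO and 272 CPM in WT untreated (-0.05, -0.20 to 0.10). The difference in untreated microglia was not detectable at this depth. WT anti-PD1 was the highest library in monocytes and macrophages, and KO anti-PD1 the lowest in microglia.

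Fcer1g, the shared signalling chain, was lower in KO in both lineages and both pairs, by less than 2-fold. Monocytes and macrophages had 3133 CPM in KO and 4295 CPM in WT after anti-PD1 (log2 ratio -0.46, -0.47 to -0.44), and 2025 CPM in KO and 3079 CPM in WT untreated (-0.60, -0.63 to -0.58). Microglia had 2389 CPM in KO and 3578 CPM in WT after anti-PD1 (-0.58), and 1945 CPM in KO and 2558 CPM in WT untreated (-0.39). The median log2 ratio of all genes in the same cells was 0.13 in anti-PD1 monocytes and macrophages and 0.26 in anti-PD1 microglia, against 0.08 and 0.00 in the untreated pair. In anti-PD1 monocytes and macrophages that median was -0.09 with TMM factors and 0.00 with DESeq2 size factors. With TMM factors Fcgr3 (-1.20) and, just at the limit, Fcgr4 were called as well, 3 of 5 in all, and with DESeq2 size factors Fcgr1 and Fcgr3 (-1.11), 2 of 5. The share of all genes called under these factors was not computed, so these counts have no background beside them. No member changed the direction of its KO/WT ratio in monocytes and macrophages or microglia under TMM or DESeq2 scaling.

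**Figure D2:**
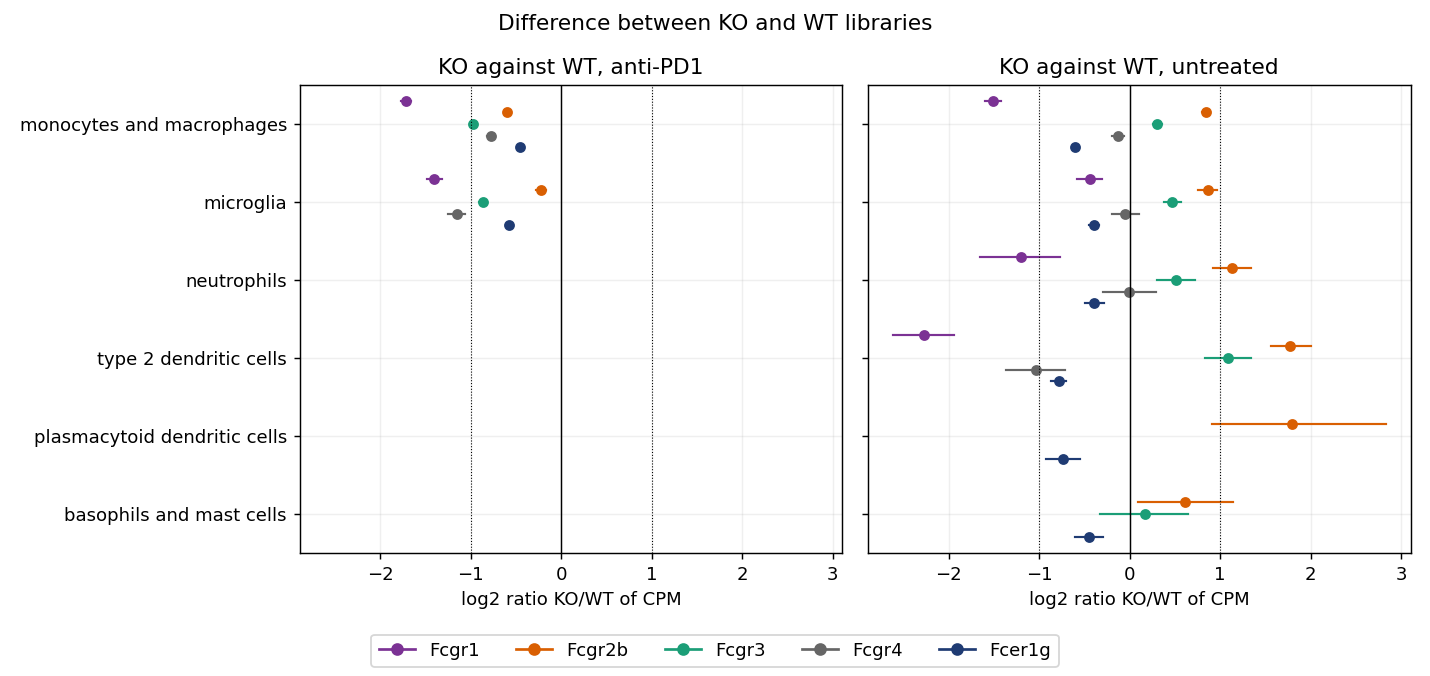
Log2 ratio KO/WT of CPM for each member, in the anti-PD1 pair (left) and the untreated pair (right), with 95% intervals for counting error; dotted lines mark 2-fold, and members under 50 UMIs in the pair are left out. Migratory dendritic cells and T cells are not drawn. In the gates drawn, Fcgr1 lies left of 0, and Fcgr2b lies right of 0 in the untreated pair (0.84 in monocytes and macrophages) and left of it after anti-PD1 (-0.60).

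Marker states within monocytes and macrophages differed in number between the libraries. The states were cut at raw UMI counts, and depth differed. Median UMIs of the whole gate were 5206.5 in KO and 9140 in WT after anti-PD1, and 9956 in KO and 7381.5 in WT untreated. The part of depth in the numbers of cells and in the comparisons within states was not tested. Ly6c2-positive, C1q-low cells, which carry the marker of inflammatory monocytes without complement C1q, numbered 11 of 3938 in KO and 785 of 5434 in WT after anti-PD1, and 50 of 935 in KO and 738 of 1656 in WT untreated. In these cells of the untreated pair Fcgr1 had 94.9 CPM in KO and 520.5 CPM in WT (log2 ratio -2.44, -2.90 to -2.04), and Fcgr4 had 156 CPM in KO and 287 CPM in WT (-0.87). C1q-positive, Ly6c2-low macrophages of the untreated pair had 146 CPM of Fcgr1 in KO and 253 CPM in WT (-0.79, -0.94 to -0.65), so there the difference was under 2-fold and no member was called (6.34% of all genes were). The same macrophages after anti-PD1 had 121 CPM in KO and 356.5 CPM in WT (-1.56, -1.62 to -1.50). Cells with both markers had 166 CPM in KO and 343 CPM in WT untreated (-1.04). Thus Fcgr1 was lower in KO within every state that could be compared, while the WT levels were highest in the Ly6c2-positive, C1q-low cells (517 CPM after anti-PD1 and 520.5 CPM untreated).

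Fcgr2b was higher in untreated KO than in untreated WT within each of these states, with 819 CPM in KO and 529.5 CPM in WT in Ly6c2-positive, C1q-low cells (0.63) and 1155 CPM in KO and 822 CPM in WT in C1q-positive, Ly6c2-low cells (0.49). Cells with neither marker gave 1221 CPM in KO and 476 CPM in WT (1.36). The KO cells of that state had a median of 8263 UMIs and the WT cells 3590, and the part of depth in this value was not tested. Arg1-positive macrophages, which carry arginase, had 692 CPM of Fcgr2b in KO and 1054 CPM in WT after anti-PD1, and 1251 CPM in KO and 884.5 CPM in WT untreated. Nos2-positive macrophages, which carry the inducible nitric oxide synthase, were compared after anti-PD1 alone (197 KO and 1528 WT cells) and had 147 CPM of Fcgr1 in KO and 381 CPM in WT (-1.37), with 503 CPM of Fcgr4 in KO and 580.2 CPM in WT (-0.21). Retnla-positive macrophages reached 50 cells in the KO anti-PD1 library alone (326 cells), where they had 99.5 CPM of Fcgr1 and 673 CPM of Fcgr2b.

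**Figure D3:**
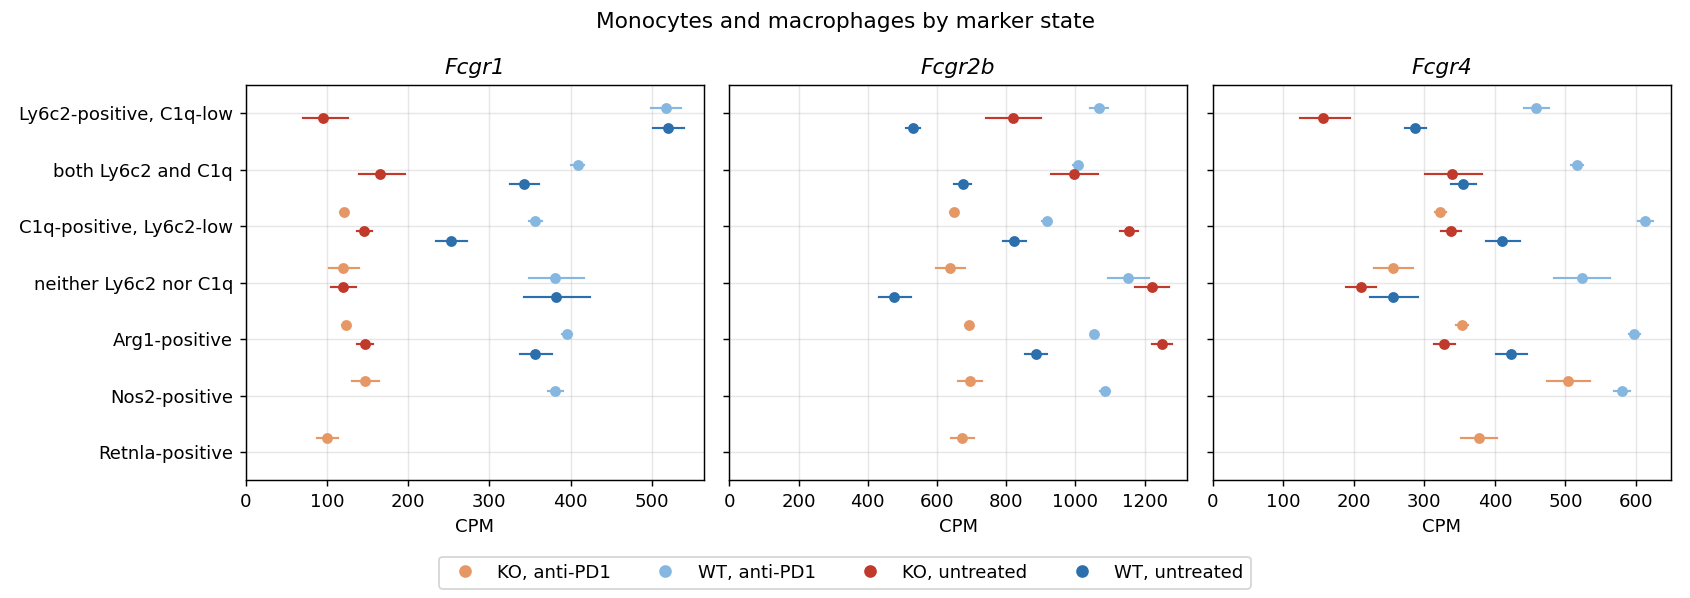
Fcgr1, Fcgr2b and Fcgr4 (CPM) in marker states of monocytes and macrophages by library, with 95% Poisson intervals; states under 50 cells in a library are not drawn, and the Arg1, Nos2 and Retnla states overlap the others. Fcgr1 in KO stays at 166 CPM or below in every state drawn, and in WT at 253 CPM or above.

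Because Fcgr2b and the activating receptors are read within the same library, their ratio does not depend on scaling between libraries. It can still depend on which part of the transcripts is read, since Fcgr2b and Fcgr3 share stretches in their first part. That dependence was not tested. Fcgr2b made up 43.3% of the receptor UMIs (Fcgr1, Fcgr2b, Fcgr3 and Fcgr4) of monocytes and macrophages in KO and 35.9% in WT after anti-PD1, and 51.7% in KO and 34.0% in WT untreated, a difference of 7.41 and 17.7 percentage points. In microglia the share was 38.2% in KO and 26.3% in WT after anti-PD1, and 34.8% in KO and 24.5% in WT untreated, a difference of 11.9 and 10.3 points. KO was above WT in all 4 comparisons, also in the anti-PD1 pair, where the CPM of Fcgr2b was lower in KO. Within C1q-positive, Ly6c2-low macrophages the share was 43.1% in KO and 34.2% in WT after anti-PD1 and 51.3% in KO and 39.6% in WT untreated. Nos2-positive macrophages had nearly equal shares, 38.3% in KO and 37.6% in WT.

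**Figure D4:**
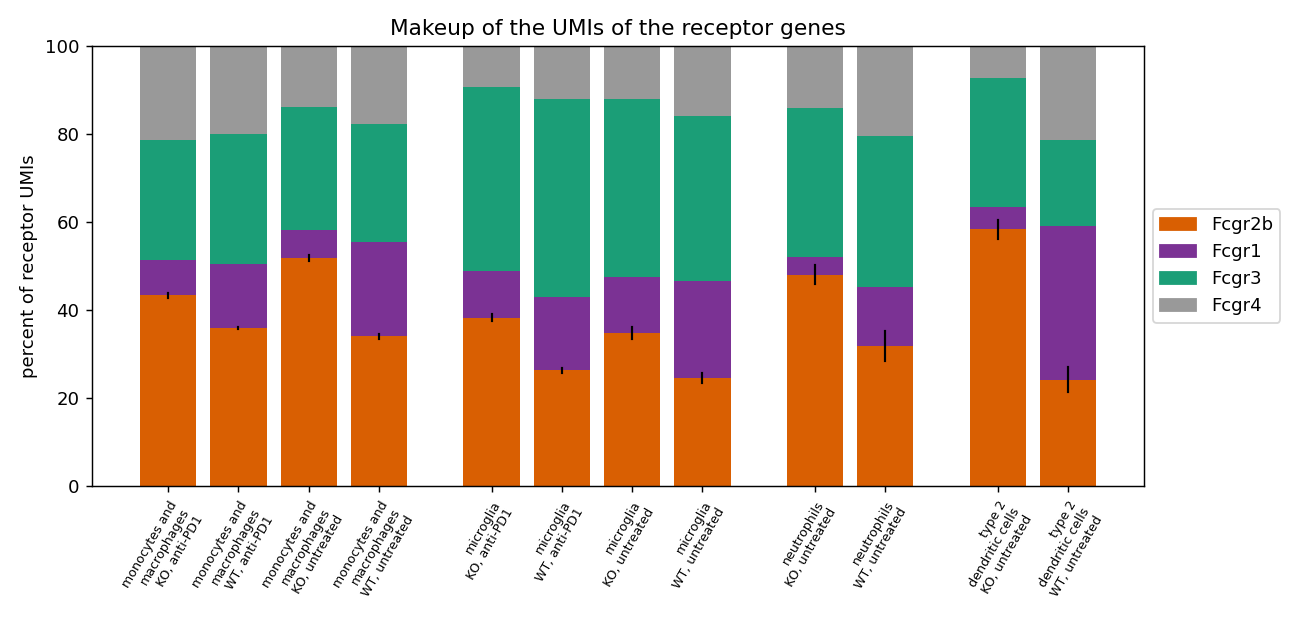
Share of each receptor gene in the summed UMIs of Fcgr1, Fcgr2b, Fcgr3 and Fcgr4 (percent), by gate and library; black lines are 95% Clopper-Pearson intervals of the Fcgr2b share. The Fcgr2b part is larger in KO than in WT in each pair drawn, for example 51.7% against 34.0% in untreated monocytes and macrophages.

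Among the other lineages, 8 of 20 member values were called in the untreated pair, and they lay in 4 gates. Type 2 dendritic cells, which present antigen to CD4 T cells, held 4 of them, where 7.18% of all genes were called. Fcgr1 had 39.1 CPM in KO and 189.8 CPM in WT (log2 ratio -2.27, -2.62 to -1.95), and Fcgr4 had 56.1 CPM in KO and 115 CPM in WT (-1.04, -1.37 to -0.72). Fcgr2b had 448 CPM in KO and 130.5 CPM in WT (1.78), and Fcgr3 had 225 CPM in KO and 106 CPM in WT (1.09, 0.84 to 1.35). Fcgr2b thus made up 58.3% of receptor UMIs in KO and 24.1% in WT. This gate also held monocyte and macrophage markers at 2777 CPM in KO and 3787 CPM in WT, above its own list at 1759 CPM in KO and 1507 CPM in WT. In the 104 KO and 71 WT cells with at most 2 of the 6 monocyte and macrophage genes, Fcgr1 had 22.4 CPM in KO and 118 CPM in WT, and Fcgr2b had 255 CPM in KO and 48.4 CPM in WT, so those differences were as large there. Fcgr3 had 139 CPM in KO and 21.1 CPM in WT in these cells (2.68), but was under 2-fold with cells thinned to 1000 UMIs (0.27) or loose gates (at least 2 of 6 markers; 0.39).

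The untreated neutrophil gate (131 KO and 96 WT cells) was mixed, with monocyte and macrophage markers at 7622 CPM in KO and 7605 CPM in WT beside neutrophil markers at 21481 CPM in KO and 52999 CPM in WT. Over the whole gate Fcgr1 had 81.0 CPM in KO and 187 CPM in WT (-1.20) and Fcgr2b had 964 CPM in KO and 441 CPM in WT (1.13), 2 of 5 called against 12.2% of all genes. In the 73 KO and 72 WT cells with at most 2 of the 6 monocyte and macrophage genes, Fcgr3 remained at 384 CPM in KO and 337 CPM in WT. Fcgr4 in those cells had 97.2 CPM in KO and 208 CPM in WT, from 19 and 55 UMIs. Fcgr2b there had 66.5 CPM in KO and 45.5 CPM in WT, and Fcgr1 had 0 UMIs in KO and 5 in WT. Most of the Fcgr1 and Fcgr2b of this gate thus lay in cells that also carried macrophage genes. In the WT anti-PD1 library the same gate held neutrophil markers at 735 CPM and monocyte and macrophage markers at 19795 CPM, and the KO anti-PD1 type 1 dendritic cell gate held its own markers at 825 CPM against 8262 CPM, so neither is described as that cell type.

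Plasmacytoid dendritic cells, the interferon producers, had Fcgr2b as 97.4% of their few receptor UMIs in KO and 77.8% in WT, with 71.5 CPM in KO and 20.1 CPM in WT (log2 ratio 1.80, 0.91 to 2.83), from 37 and 14 UMIs, 1 of 2 measured members called against 6.38% of all genes. Their Fcer1g had 634 CPM in KO and 1057 CPM in WT (-0.74). Migratory dendritic cells had Fcgr2b at 31.3 CPM in KO and 68.5 CPM in WT (-1.11), 1 of 2 called against 6.65%. There 16.1% of KO but 6.67% of WT cells held an Fcgr2b UMI, and with each cell given equal weight the log2 ratio was 0.18, so the sign rests on how cells are weighted. Type 1 dendritic cells, the cross-presenting kind, reached 50 cells in untreated KO alone, apart from the misnamed KO anti-PD1 gate. They had Fcgr2b at 145 CPM and Fcgr3 at 128 CPM. Monocyte and macrophage markers stood at 1750 CPM in these cells beside their own list at 4137 CPM. The part of macrophage RNA in these levels was not tested.

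Basophils and mast cells, which use Fcer1g for the IgE receptor, had Fcer1g at 1598 CPM in KO and 2186 CPM in WT (-0.45), and 0 of 3 measured members called against 6.68%. Fcgr3 had 206 CPM in KO and 184 CPM in WT, and Fcgr2b had 213 CPM in KO and 139 CPM in WT (0.61), a difference that turned to -0.36 in cells with at most 2 of the 6 monocyte and macrophage genes. Fcgr1 and Fcgr4 stayed at 3.13 and 6.26 CPM in KO and at 6.83 and 4.55 CPM in WT, near the T cell level. NK cells of the untreated WT library (265 cells) had Fcgr3 at 47.7 CPM, 72.1% of their receptor UMIs, and 23.8% of them held an Fcgr3 UMI against 2.83% of T cells (medians of 5130 and 8538 UMIs). B cells of that library (71 cells) had Fcgr2b at 142 CPM, 92.9% of their receptor UMIs, and 0 Fcgr1 UMIs, which allows up to 6.54 CPM.

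Fcer1g was also found in T cells, whose receptor counts were at background. In the untreated pair CD8 T cells had 308 CPM in KO and 409 CPM in WT (log2 ratio -0.41), and CD4 T cells had 19.1 CPM in KO and 60.8 CPM in WT (-1.65, from 30 and 206 UMIs, where 3.43% of genes were called). CD8 T cells held 3144 Fcer1g UMIs per 100 receptor UMIs in KO and 2993 in WT, while monocytes and macrophages held 92.1 in KO and 165 in WT. CD4 T cells held 200 in KO and 528 in WT, from 15 and 39 receptor UMIs. The part of free RNA in the Fcer1g of CD4 T cells was not tested. After anti-PD1 the ratio in CD8 T cells was 213 in KO and 344 in WT, and in monocytes and macrophages 209 in KO and 157 in WT. The KO anti-PD1 value was close to that of macrophages. In the T cell gate 0 of 3 members were called in the untreated pair (2.41% of all genes) and 1 of 5, Fcgr1, was called lower after anti-PD1 (6.25% of genes were called lower), from 17 and 43 UMIs and at the background level.

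**Figure D5:**
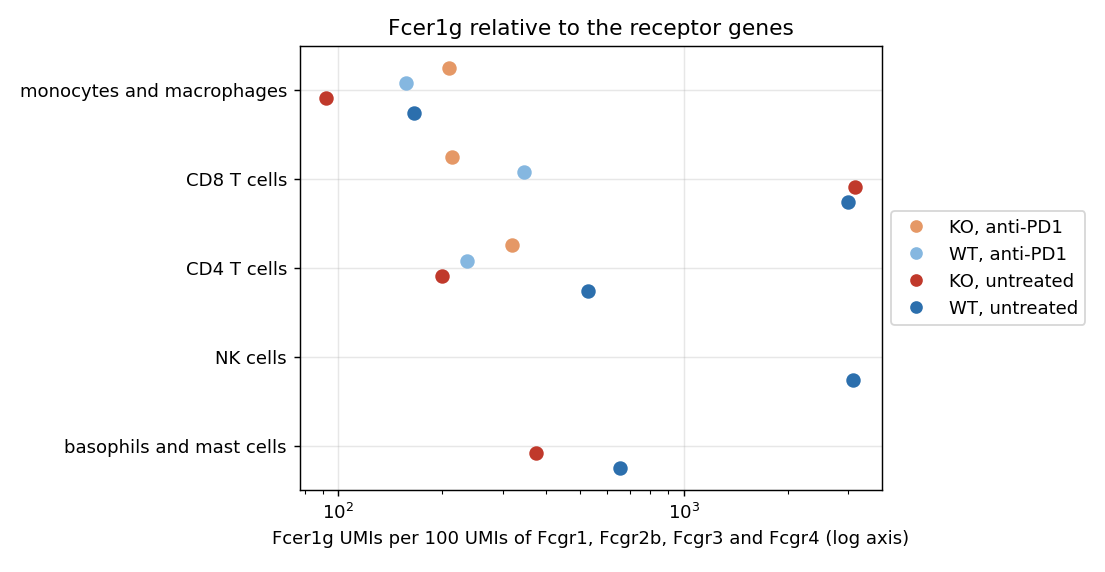
Fcer1g UMIs per 100 UMIs of the 4 receptor genes (log axis) by gate and library. CD8 T cells of the untreated libraries and NK cells of the untreated WT library stand between 2993 and 3144. Monocytes and macrophages stand between 92.1 and 209. CD8 T cells of the anti-PD1 libraries stand at 213 in KO and 344 in WT. CD4 T cells of the untreated libraries stand at 200 in KO and 528 in WT.

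Comparisons of anti-PD1 with untreated libraries use the libraries already described. These differ in day, mixing, Cell Ranger version and T cell receptor segment ratio, so the values are only set side by side. In WT monocytes and macrophages Fcgr1 had 399 CPM after anti-PD1 and 398 CPM untreated. The other 4 members were higher after anti-PD1, with log2 ratios from 0.48 (Fcer1g) to 0.72 (Fcgr4). In KO monocytes and macrophages Fcgr2b had 649 CPM after anti-PD1 and 1137 CPM untreated (log2 ratio -0.81), Fcgr3 had 408.5 and 618 CPM (-0.60), and Fcer1g had 3133 and 2025 CPM (0.63). No member was called in either, where 26.0% of genes in WT and 25.3% in KO were. In microglia 0 of 5 were called in WT (26.6% of genes) and 1 of 5 in KO (19.5%), Fcgr4, with 124 CPM after anti-PD1 and 263 CPM untreated (-1.08).

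Other genes of the pathway were read in monocytes and macrophages from 6 lists. Of the other Fc receptor genes, 6 of 13 were measured after anti-PD1, 3 called higher and 2 lower, and 5 untreated, 1 higher and 1 lower. Over all genes 10.2% were called higher and 7.53% lower after anti-PD1, and 4.61% higher and 4.50% lower untreated, and these hold for each list. Fcgrt, the neonatal Fc receptor that recycles IgG, had 109 CPM in KO and 39.1 CPM in WT after anti-PD1 (log2 ratio 1.48), and 116 CPM in KO and 26.6 CPM in WT untreated (2.12). Trim21, a cytosolic antibody receptor induced by interferon, had 4.90 CPM in KO and 12.9 CPM in WT after anti-PD1 (-1.39), and 9.04 CPM in KO and 23.7 CPM in WT untreated (-1.39). Fcrla, an Fc receptor-like gene, was at 0.70 after anti-PD1 and 0.98 untreated. In microglia Fcgrt was at -0.04 after anti-PD1 and 0.82 untreated.

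All 18 kinases and adaptors that act just below the receptors were measured, with 2 called higher and 2 lower after anti-PD1 (median log2 ratio -0.01, all genes 0.13), and 0 called untreated (median 0.00, all genes 0.08). Pik3r1, a regulatory subunit of PI3 kinase, was at 0.72 after anti-PD1 and 0.71 untreated, and Fgr, a Src-family kinase, at -0.42 and -0.54.

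Of 15 inhibitory phosphatases and ITIM receptors, 1 was called higher and 2 lower after anti-PD1 (median -0.47), and 3 higher and 0 lower untreated (median -0.14). Dok2, an adaptor that dampens signalling, had 90.8 CPM in KO and 32.9 CPM in WT after anti-PD1 (1.46), and 139.95 CPM in KO and 40.5 CPM in WT untreated (1.79). Clec4a2, an inhibitory lectin, was at 0.82 and 1.25, and Lilrb4a, an inhibitory leukocyte receptor, at -0.94 and -0.80. Among receptors that couple to the gamma chain and related adaptors, 10 of 14 were measured in each pair, with 3 called higher and 5 lower after anti-PD1 (median -0.81) and 1 higher and 0 lower untreated (median -0.22). Clec4d, an activating lectin of the gamma chain, was at -1.38 and -0.89, Cd300lb at 2.49 and 0.85, and Clec4b1 at 1.80 and 0.65.

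All 5 phagocyte oxidase subunits were measured, with 0 higher and 1 lower after anti-PD1 (median -0.37) and 0 called untreated (median 0.05). Ncf4 had 73.7 CPM in KO and 212 CPM in WT after anti-PD1 (-1.52), and 130.4 CPM in KO and 190 CPM in WT untreated (-0.54). Cyba was at -0.45 and -0.53. Immunoglobulin constant genes, the transcripts of the ligand, gave 1 of 13 measured after anti-PD1 (1 higher) and 3 untreated (3 lower), and no gene had the same direction in both pairs. The untreated WT library held 71 B cells and the untreated KO library 17, and their part in these counts was not tested.

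Across 28 combinations of lineage and library with at least 50 cells (the misnamed gates among them), the genes most like each member in log2(CPM + 1) were named by Pearson correlation among 11821 genes, as a description over points that share libraries. Fcgr1 was most like Clec5a (0.96), Fcgr4 (0.95) and Aif1 (0.95). For Fcgr2b they were Lrrc25 (0.93), Ctsc (0.92) and Scamp1 (0.90), and for Fcgr3 they included Pla2g4a and Tnfsf12 (0.94 each). Fcgr4 was most like Cd302 (0.97), Fcgr1 (0.95) and C3 (0.95). Fcer1g had weaker partners, among them Trf (0.87) and Naip2 (0.86). Among the members the highest correlation was that of Fcgr1 with Fcgr4, genes of different chromosomes, and the lowest that of Fcgr4 with Fcer1g (0.64), genes of the same cluster.

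Within the chromosome 1 cluster, the neighbours of the receptor genes did not all go the same way between KO and WT. Sdhc, a respiratory chain subunit between Fcgr3 and Fcer1g, was at 0.50 after anti-PD1 and 0.71 untreated in monocytes and macrophages, and Tomm40l at 0.02 and 0.48. Gm10522, a long noncoding gene between Fcgr2b and Fcgr4, was at 1.08 and 1.80, from 58 KO and 61 WT UMIs after anti-PD1 and 63 KO and 24 WT UMIs untreated. Cfap126, between Fcgr3 and Sdhc, was at 0.30 after anti-PD1 and -1.51 untreated. Its counts were 66 KO and 119 WT UMIs after anti-PD1 and 14 KO and 55 WT UMIs untreated. These genes were chosen for their position. Gm38204, antisense to Fcgr2b, had 20 UMIs in KO and 92 in WT after anti-PD1 and 6 in KO and 1 in WT untreated, few beside the counts of Fcgr2b (16014 in KO and 53650 in WT, 11191 in KO and 8389 in WT).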

How the data were processed

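Live CD45.2+ cells of 4 libraries were measured. The deposited values are raw counts of UMIs per gene and barcode, not normalized by the authors. Counts came from Cell Ranger 7.2.0 (anti-PD1) and Cell Ranger 3.1.0 (untreated) per the file headers, with the builds mm10 and GRCm38 per the submitters' processing notes. The labels name a 10x 5' kit. Settings for introns and cell calling are not given in the sources used here. The genes of all 4 feature lists held 99.5% to 99.9% of UMIs. Cells had to show 200 or more genes and no more than 10% mitochondrial counts. The mitochondrial limit removed 3.30% of KO and 0.693% of WT barcodes after anti-PD1 and 24.2% of KO and 21.0% of WT untreated. Scrublet, left to its own threshold, marked no more than 2 cells in any library. The highest scores were removed instead at 0.8% per 1000 barcodes (594 KO and 722 WT cells after anti-PD1, 83 KO and 280 WT untreated).

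A gate was positive with at least 3 of 6 markers. A cell positive for several lineages was set apart as mixed, except that several dendritic gates resolved to the highest. T, B and NK cells had fewer than 3 monocyte and macrophage genes, and microglia more microglia than monocyte and macrophage genes. States used at least 2 Ly6c2 UMIs, a C1qa, C1qb and C1qc sum of at least 5, or at least 3 Arg1, Nos2 or Retnla UMIs. Counts were summed per lineage and library. Log2 ratios used a pseudocount of 0.5, gates of 50 or more cells in both libraries and genes of 50 or more UMIs over both, and read the share of all genes at least 2-fold different as background. Ratio intervals are exact conditional binomial, level intervals exact Poisson and share intervals Clopper-Pearson. A count of 0 allows up to 3 counts. The computation was tested on simulated counts. No replicate spread exists, so no p-value was computed.

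The members, gates and lists were chosen with earlier results of these data known. Named list genes were up to 3 per list with the same direction in both KO against WT pairs, ranked by the smaller absolute ratio. Some genes that this rule or the likeness ranking names are not reported here. Genes between the receptors were named for position. The tools were scipy 1.17.1, numpy 2.4.6, pandas 2.3.3, scanpy 1.11.5 and matplotlib 3.10.9 under Python 3.11.15 and, for the alternatives, edgeR 4.0.16 and DESeq2 1.42.0 in R 4.3.3. Shared 50-base stretches came from GENCODE transcripts.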

Additional observations from a re-analysis of the deposited data

Results flagged for a closer look

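The KO to WT ratio of Fcgr2b and Fcgr3 had opposite signs in the anti-PD1 and the untreated pair, with counting intervals on opposite sides of 0. The difference was not tested, since each group is 1 library. In monocytes and macrophages the log2 ratio KO/WT of Fcgr2b was -0.60 after anti-PD1 and 0.84 untreated, and that of Fcgr3 was -0.98 and 0.30. In microglia Fcgr2b was at -0.23 after anti-PD1 and 0.86 untreated, and Fcgr3 at -0.87 and 0.47. The T cell receptor segment ratios given above differ between KO and WT of the anti-PD1 pair. The part of their unknown reason in these values was not tested.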

How the results depend on the processing

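No paired analysis was possible because each group is 1 library. Of 815 member ratios recomputed under alternatives, 791 kept their direction. Of 168 that belong to ratios reported as at least 2-fold, 155 stayed so and 1 turned, Fcgr2b in untreated migratory dendritic cells (0.18 with each cell given equal weight, main -1.11). The cause of these moves was not tested.

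Counts of called members moved as follows. Apart from untreated C1q-positive, Ly6c2-low cells, the share of all genes called was not computed for these alternatives. The other moved counts thus have no background beside them. In monocytes and macrophages of the anti-PD1 pair (reported 1) the count was 2 with equal weights or DESeq2 size factors and 3 with TMM factors. In the untreated pair (reported 1) it was 0 in C1q-positive, Ly6c2-low cells alone. In WT, anti-PD1 against untreated (reported 0), TMM gave 1. In microglia of the untreated pair (reported 0) thinning gave 1. Anti-PD1 against untreated gave 1 in WT microglia with TMM (reported 0). In KO microglia (reported 1) it gave 0 with TMM, DESeq2 size factors or the stricter cell filter (500 genes, 5% mitochondrial counts), and 2 with at most 2 of 6 monocyte and macrophage genes. Over the other lineages the number of measured member values changed with the setting as well. In the untreated pair (reported 8) the count was 5 of 14 with the stricter filter and 2 of 10 with thinning. With no minimum of UMIs it was 13 of 29. In the anti-PD1 pair (reported 1) the count was 5 of 18 with loose gates (at least 2 of 6 markers). With thinning it was 0, where only 1 value was measured.

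The Fcgr2b share difference of monocytes and macrophages was 8.16 points with loose gates, 8.76 with equal weights and 8.85 in C1q-positive, Ly6c2-low cells after anti-PD1 (main 7.41). Untreated (main 17.7), it was 19.6 with loose gates, 19.4 with the stricter filter, 18.7 with thinning and 11.7 in C1q-positive, Ly6c2-low cells. In microglia after anti-PD1 (main 11.9) thinning gave 14.9. Restricting cells to C1q-positive, Ly6c2-low ones or to few macrophage genes, and leaving out shared barcodes, were chosen after seeing the data. Without shared barcodes each count above was as reported.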

Other observations

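The number of receptor genes detected per cell was read in monocytes and macrophages. With every cell thinned to 1000 UMIs, 27.5% of KO and 11.8% of WT cells after anti-PD1 and 15.1% of KO and 24.1% of WT cells untreated held a UMI of none of the 4 receptor genes. After anti-PD1 41.3% of KO and 29.7% of WT cells held exactly 1, and untreated 39.3% of KO and 37.0% of WT. Exactly 2 were held by 24.6% of KO and 34.3% of WT after anti-PD1, and 35.6% of KO and 27.9% of WT untreated. Cells with at least 1 UMI of all 4 made up 0.266% of KO and 4.28% of WT after anti-PD1. Untreated, they made up 0.873% of KO and 1.76% of WT. In microglia 32.2% of KO and 11.5% of WT cells after anti-PD1 and 17.7% of KO and 23.9% of WT cells untreated held none. In both lineages the pair turned round between treatments, as did the summed levels of Fcgr2b and Fcgr3.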
